A study of Mus musculus with 16 samples.

Results

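The genes described here are the enzymes of cholesterol synthesis together with the SREBP transcription factors that control them and other SREBP targets, measured in mouse cells expressing 8 histone H3 transgenes. They were taken by symbol from a list of 34 genes, of which 33 are reported out of 20325 genes in the deposited table; Hmgcs1 was not analysed here. By role they are 17 genes of sterol synthesis, 5 of SREBP control, 9 of fatty acid synthesis and modification, and 2 of isoprenoid synthesis and sterol transport. All 33 passed the filter on low values, which 12670 genes of the table passed, and none did so through a single group, since the lowest value of any of them in any library was 72.3, for Lpin1 in H3.1WT.

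Cells make cholesterol from acetyl-CoA through mevalonate, isoprenoid units, squalene and lanosterol. SREBP2, encoded by Srebf2, drives the genes of this route, and SREBP1, encoded by Srebf1, drives chiefly those of fatty acid synthesis. Both are made as membrane proteins that the escort protein SCAP carries to the Golgi for cleavage when membrane cholesterol is low. INSIG proteins hold SCAP back when sterols are plentiful, so the transcripts of the route usually go up and down together with the sterol supply of the cell. Mesenchymal cells run this route for membrane growth, and when they turn into adipocytes they also take up fatty acid synthesis on a large scale.

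C3H10T1/2 is a mouse mesenchymal line used as a model of mesenchymal stem cells, and the design asks how these histone substitutions, alone and combined, change its transcripts. A histone transgene was brought in by lentivirus over 2 days, puromycin followed (1.5 µg/ml, 4 days), and RNA-seq was run on the polyadenylated fraction. The 8 groups, with 2 libraries in each, expressed H3.1G34W, H3.1WT, H3.3G34W_K27R, H3.3G34W_K36R, H3.3G34R, H3.3G34W, H3.3K27R or H3.3WT on top of the cell's own histones. All of them, controls included, carried a transgene and went through puromycin, and the promoter of the transgene and the number of integrations are not given in the sources used here. H3.3 and H3.1 are the replication-independent and the replication-coupled form of histone H3, G34W and G34R replace a glycine that is mutated in giant cell tumour of bone and in brain tumours, and K27R and K36R replace a lysine that carries methyl marks with an arginine that cannot.

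The upstream sequences of the members were examined first, because SREBP is known to act at short elements close to the start site together with the factors NF-Y, which binds CCAAT, and Sp1, which binds GGGCGG. The 250 bases before the annotated start, from RefSeq on GRCm38.p6, a later build than the mm9 of the expression values, were found for 26 of the 33 members, that is, for all but Fdft1, Fdps, Sqle, Scd1, Scd2, Fads1 and Stard4. Shown are the sterol synthesis genes that differed most clearly across the groups and had an entry (Idi1, Sc4mol, Hsd17b7 and Sc5d). The fatty acid genes shown, Elovl6 and Fads2, were chosen in the same way. Each sequence runs 5′ to 3′ on the strand of the gene and ends at the base before the start. Capitals mark matches to CCAAT and GGGCGG or their complements. Idi1 lies at chr13:8885356-8885605, plus strand; Sc4mol, now called Msmo1, at chr8:64733579-64733828, minus strand; Hsd17b7 at chr1:169969206-169969455, minus strand; Sc5d at chr9:42264301-42264550, minus strand. Elovl6 lies at chr3:129532136-129532385, plus strand; Fads2 at chr19:10101504-10101753, minus strand.
Idi1: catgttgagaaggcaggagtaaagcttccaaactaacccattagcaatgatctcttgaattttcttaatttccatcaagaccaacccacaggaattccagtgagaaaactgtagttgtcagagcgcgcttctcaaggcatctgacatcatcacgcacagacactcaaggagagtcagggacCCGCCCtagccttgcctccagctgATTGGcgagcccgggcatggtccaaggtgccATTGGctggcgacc
Sc4mol: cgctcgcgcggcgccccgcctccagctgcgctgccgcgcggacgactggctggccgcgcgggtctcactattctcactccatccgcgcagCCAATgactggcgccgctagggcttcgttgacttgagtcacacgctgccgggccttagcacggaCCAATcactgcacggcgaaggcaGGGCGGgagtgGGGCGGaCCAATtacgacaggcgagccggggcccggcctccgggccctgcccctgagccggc
Hsd17b7: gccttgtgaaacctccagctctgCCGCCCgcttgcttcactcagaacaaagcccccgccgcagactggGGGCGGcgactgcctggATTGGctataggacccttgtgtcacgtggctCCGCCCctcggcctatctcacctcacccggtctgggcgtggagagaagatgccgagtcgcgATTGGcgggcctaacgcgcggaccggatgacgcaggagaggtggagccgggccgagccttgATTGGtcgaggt
Sc5d: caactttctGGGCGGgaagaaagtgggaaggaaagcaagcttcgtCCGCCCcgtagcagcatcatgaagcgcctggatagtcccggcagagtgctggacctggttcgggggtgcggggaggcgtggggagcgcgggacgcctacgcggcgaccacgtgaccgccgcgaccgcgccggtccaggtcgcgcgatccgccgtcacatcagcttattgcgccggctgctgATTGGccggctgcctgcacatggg
Elovl6: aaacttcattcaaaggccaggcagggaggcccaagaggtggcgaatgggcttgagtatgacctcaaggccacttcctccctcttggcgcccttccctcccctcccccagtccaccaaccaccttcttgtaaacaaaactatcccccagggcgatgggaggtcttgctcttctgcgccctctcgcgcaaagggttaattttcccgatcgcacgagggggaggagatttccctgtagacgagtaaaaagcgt
Fads2: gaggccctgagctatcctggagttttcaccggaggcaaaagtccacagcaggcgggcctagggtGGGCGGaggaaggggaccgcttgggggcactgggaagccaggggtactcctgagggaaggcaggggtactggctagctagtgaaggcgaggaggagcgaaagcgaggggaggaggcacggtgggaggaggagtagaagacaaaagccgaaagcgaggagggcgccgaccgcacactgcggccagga

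Of the 14 sterol synthesis genes with a window, 13 held CCAAT (92.9%), against 41.1% of the 8984 tested genes with a window. GGGCGG was also in 13 of the 14, against 63.9% of those genes, and 12 of the 14 (85.7%) held both, against 26.6%. Over all 27025 genes with a window the shares were 37.5% for CCAAT, 35.4% for GGGCGG and 13.8% for both. The fatty acid genes did not share this: 2 of 6 held CCAAT, 3 of 6 held GGGCGG, and 1 of 6, Acsl3, held both. Among 5 genes of SREBP control, Srebf1, Srebf2, Insig1 and Insig2 held both, and Scap held GGGCGG without CCAAT.

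The letters CCAAT and GGGCGG were searched on both strands, and so were TCACNCCAC, the usual sterol response element, and TCACGTGA, an E-box that SREBP1 also binds, which share the letters TCAC at their start. TCACNCCAC, found in 1.22% of tested genes with a window, and TCACGTGA, found in 1.81%, were in none of the 26 members. These matches describe letters in a window, and no binding was measured. The pair of CCAAT boxes of Idi1, 45 to 41 and 14 to 10 bases before its start, and the 3 of Sc4mol, at 160 to 156, 96 to 92 and 55 to 51, stand before genes whose values are given in full below.

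Values are expected read counts scaled by a median normalization and not divided by gene length, so levels are compared between groups for 1 gene and not between genes. Per-library depth was estimated at 26020000 to 49120000 reads, 1 read was worth 0.758 to 1.25 in the deposited unit, and the value that 3 reads give was 2.27 to 3.74, a floor that covers counting error only. The 10 mesenchymal markers examined had a summed value of 781848 to 1367120 over the 16 libraries, and none was at or under 3 reads in any library. The summed value of 9 markers of other cell types was 84.7 to 897, with 4 to 6 of the 9 at or under 3 reads in each library. Ptprc and Epcam, of blood and epithelial cells, were at 2.13 or less throughout; Tubb3 and Cdh5, of neurons and endothelium, were not and are described with the adipocyte genes. Sampling noise alone accounted for the difference between the H3.3WT libraries where reads came out whole (chi-square divided by its degrees of freedom, 0.939 over 2343 genes), so they were averaged to 1 sample and their means carry no SD. In H3.3G34W_K27R, H3.3G34W_K36R, H3.3G34R and H3.3K27R the pair was also close on these genes (1.17 to 1.42), and in H3.1G34W, H3.1WT and H3.3G34W it was far apart (40.1 to 54.2). Whole reads cover only part of the table: over all genes of at least 20 reads the same measure was 2.86 in H3.3G34W_K27R, 1.72 in H3.3G34W_K36R, 6.05 in H3.3G34R, 3.25 in H3.3K27R and 1.10 in H3.3WT, against 231 to 281 in the 3 wide pairs.

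Replicate 1 of H3.1G34W correlated more closely across genes with replicate 1 of H3.1WT (r = 0.992) than with its own partner (r = 0.969). Replicate 2 of H3.1G34W was closest to replicate 2 of H3.3G34W_K36R (r = 0.975), and both H3.3G34W libraries were closer to H3.3G34R (r = 0.949 and 0.978) than to each other (r = 0.938). The labels do not say that replicates came from separate cultures, so each p-value sets a difference against a spread of libraries that may be technical only. One estimate of spread was shared by all groups, so the wide pairs set the bar for the narrow ones too. Counts of members called are therefore also given with the 5 close pairs averaged to 1 sample apiece. Counts from fits other than the main one carry a share of all genes only in part. Without that share such a count is not read as a result about the members.

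The members varied widely across the 8 groups. In limma's moderated F test 29 of the 33 members differed between groups, where 66.6% of all tested genes did. The exceptions were Ebp, Tm7sf2, Insig2 and Lpin1, with adjusted p of 0.116, 0.0554, 0.209 and 0.0549. The ratio of the highest to the lowest group mean had a median of 5.37 over the members and 2.19 over all tested genes above 0 in every group. It was 7.06 for sterol synthesis, 5.21 for the fatty acid genes and 1.67 for SREBP control, with Idi1 at the top with 15.9 and Insig2 at the bottom with 1.38. With close pairs averaged, 2 members, Idi1 and Sc4mol, differed between groups, where 8.13% of all genes did.

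The same groups were at the ends for most members. H3.3G34W_K27R had the lowest mean for 25 of the 33 members, where it had the lowest mean for 18.2% of all genes. H3.3G34W_K36R had the highest mean for 24 members, where it had it for 11.2% of all genes. In sterol synthesis these counts were 16 and 15 of 17: Dhcr7 was lowest in H3.1WT, Pmvk was highest in H3.3G34R and Ebp in H3.3K27R. Both H3.3G34W_K27R libraries lay below all 14 others for 24 members, against 10.8% of genes. They lay above all others for 1, Scap, against 9.45% of genes. H3.3WT stood next to the bottom for 15 of the 17 sterol synthesis genes, a rank for which no share over all genes was taken.

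**Figure D1:**
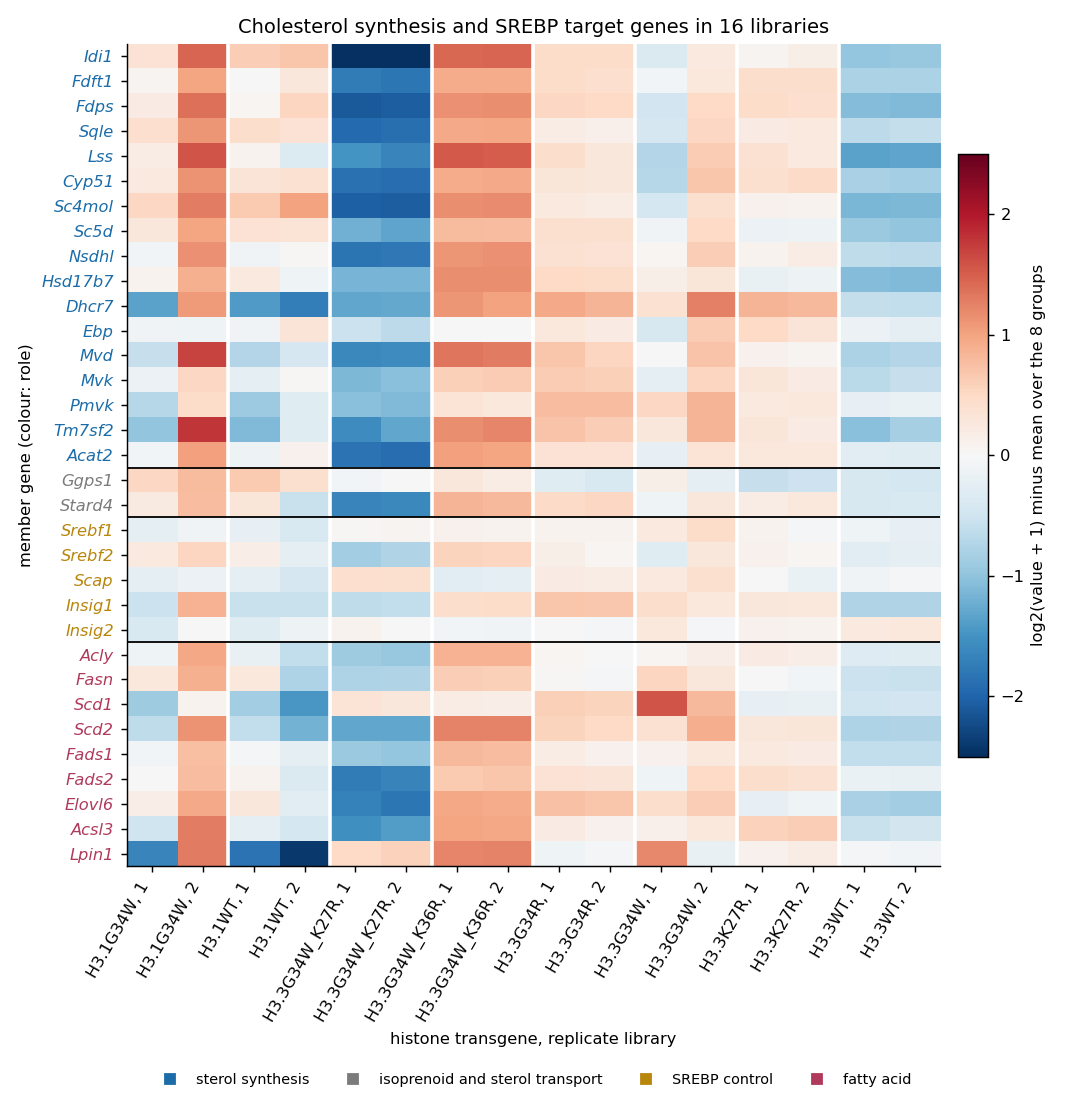
Expression of the 33 genes (rows, coloured by role) in the 16 libraries (columns), as log2(value + 1) minus the mean over the 8 groups, with red above and blue below that mean. Both H3.3G34W_K27R libraries are blue for nearly all sterol synthesis genes, and the H3.3G34W_K36R libraries and replicate 2 of H3.1G34W are red.

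Idi1, the isomerase that makes dimethylallyl diphosphate from isopentenyl diphosphate, showed the pattern in full. It read 1483 and 1478 in H3.3G34W_K27R, 23449 and 23657 in H3.3G34W_K36R, 11897 and 11927 in H3.3G34R, 6777 and 10211 in H3.3G34W, 9063 and 9570.3 in H3.3K27R, and 4435 and 4502 in H3.3WT. In the H3.1 groups the values were 11185 and 23858 in H3.1G34W, and 13352 and 13979.6 in H3.1WT. The H3.3G34W_K27R libraries were the lowest of all 16 and the H3.3G34W_K36R libraries were matched only by replicate 2 of H3.1G34W. The mean of 1481 ± 3.68 in H3.3G34W_K27R was below that of 8494 ± 2429 in H3.3G34W (SD, n = 2 each), a log2 fold change of -2.49 ± 0.29 (adjusted p = 2.1e-04). Here and below the error of a log2 fold change is its standard error and p is from limma's moderated test, adjusted over all 12670 genes by the Benjamini-Hochberg method.

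Sc4mol, the methyl sterol oxidase that starts the removal of the C4 methyl groups, read 2392 and 2371 in H3.3G34W_K27R, and 22236 and 22330.5 in H3.3G34W_K36R. The H3.3 single mutants and the control read 11661 and 11208 in H3.3G34R, 7313 and 13014 in H3.3G34W, 10634 and 10506 in H3.3K27R, and 4493 and 4518 in H3.3WT, and the H3.1 groups 14184 and 24099 in H3.1G34W, and 15591 and 19906 in H3.1WT. The groups fell into 3 levels without overlap between H3.3G34W_K27R, H3.3WT and the other libraries. Its log2 fold change in H3.3G34W_K27R was -2.03 ± 0.28 against H3.3G34W (adjusted p = 6.2e-04) and -2.15 ± 0.28 against H3.3K27R (adjusted p = 5.5e-04).

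Set against H3.3G34W, H3.3G34W_K27R had 24 members lower and none higher, while 12.4% of all tested genes fell, 9.24% rose and 21.6% did either. The median log2 fold change was -1.65 over the members and -0.0198 over all genes. In sterol synthesis 15 of 17 fell, with a median of -1.95, and Ebp (-0.72 ± 0.27, adjusted p = 0.0882) and Tm7sf2 (-1.99 ± 0.67, adjusted p = 0.0589) missed the threshold. For 29 members both H3.3G34W_K27R libraries lay below both H3.3G34W libraries, as they did for 32.1% of all genes. The count was 16 to 27 when any 1 library was left out and 25 without replicate 1 of H3.3G34W; it was 2, Idi1 and Elovl6, with close pairs averaged, where 2.74% of all genes were called.

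The fall ran through all stages of the route. Of the mevalonate steps, Acat2, which joins acetyl-CoA units in the cytosol, changed by -1.95 ± 0.29 (adjusted p = 0.00102), and the kinases Mvk and Pmvk changed by -1.24 ± 0.25 and -1.75 ± 0.32. Mvd, the decarboxylase that ends this stage, changed by -1.95 ± 0.55 (adjusted p = 0.0284). Of the isoprenoid and squalene steps, Fdps, which makes farnesyl diphosphate, changed by -2.09 ± 0.37, Fdft1, the squalene synthase, by -1.87 ± 0.24, and Sqle, the squalene epoxidase, by -1.96 ± 0.28. From the closing of the rings on, Lss, which makes lanosterol, changed by -1.53 ± 0.46 (adjusted p = 0.0366), Cyp51, the C14 demethylase, by -1.87 ± 0.38 and Nsdhl, of C4 demethylation, by -2.13 ± 0.31. The smallest called falls were those of Mvk, of Hsd17b7, the ketoreductase of C4 demethylation, at -1.38 ± 0.22, and of Sc5d, the C5 desaturase, at -1.46 ± 0.23, all log2 values.

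Against H3.3K27R, 24 members were lower and 2 higher in H3.3G34W_K27R, while 14.5% of all genes fell and 11.7% rose. The 2 that rose were Scap (0.50 ± 0.12, adjusted p = 0.0102) and Ggps1 (0.52 ± 0.17, adjusted p = 0.0429). Of sterol synthesis, 16 of 17 fell, Ebp among them (-1.01 ± 0.27, adjusted p = 0.0209), and Tm7sf2 did not pass (-1.69 ± 0.67, adjusted p = 0.0882). The median log2 fold change was -1.58, against 0.0208 over all genes. Both H3.3G34W_K27R libraries lay below both H3.3K27R libraries for 28 members, as for 42.7% of all genes. Leaving out either H3.3G34W_K27R library gave 15 calls (11.5% and 11.7% of all genes), and leaving out replicate 1 or 2 of H3.3K27R gave 17 or 15. No member was called with close pairs averaged.

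The interaction of G34W with K27R is the difference of H3.3G34W_K27R from H3.3K27R minus that of H3.3G34W from H3.3WT, and 21 members passed it, all downward, where 5.22% of all genes passed downward and 2.72% upward. Its median over the members was -2.34 on the log2 scale. Fdps had the largest interaction in size, -3.62 ± 0.58, adjusted p = 0.00463: it read 1667 and 1713 in H3.3G34W_K27R, 5134 and 10113 in H3.3G34W, 9867 and 9511 in H3.3K27R, and 3375 and 3322 in H3.3WT. Dhcr7, the last reductase of the route, had -3.54 ± 0.92, adjusted p = 0.0434, with 442 and 453 in H3.3G34W_K27R, 1432 and 2619 in H3.3G34W, 1968 and 1911 in H3.3K27R, and 722 and 713 in H3.3WT. For both genes either mutation alone lay above H3.3WT and the double mutant below it. The interaction gave 15 to 26 calls when any 1 library was left out and 0 with close pairs averaged.

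Against H3.3WT the median log2 fold change of H3.3G34W_K27R was -0.547, and over all genes -0.00821. Here 5 members fell, where 7.91% of all genes did, and 1 rose, where 6.42% did. Those that fell were Idi1 (-1.59 ± 0.36, adjusted p = 0.0151), Sqle (-1.29 ± 0.34, adjusted p = 0.0314), Acat2 (-1.57 ± 0.36, adjusted p = 0.0155), Fads2 (-1.54 ± 0.32, adjusted p = 0.00947) and Stard4 (-1.25 ± 0.32, adjusted p = 0.0261). Acat2 read 1614 and 1548 in H3.3G34W_K27R, and 4740.4 and 4684 in H3.3WT, and Sqle 2555 and 2638 in H3.3G34W_K27R, and 6233 and 6480.3 in H3.3WT. Lss and Hsd17b7 did not pass: Lss read 886 and 791 in H3.3G34W_K27R, and 986 and 1001 in H3.3WT (-0.25 ± 0.56, adjusted p = 0.831), and Hsd17b7 1281 and 1284 in H3.3G34W_K27R, and 1349.9 and 1331 in H3.3WT (-0.064 ± 0.27, adjusted p = 0.91). For 27 members both H3.3G34W_K27R libraries lay below both H3.3WT libraries, as they did for 44.5% of all genes, and above them for 6, as for 43.8%. Without replicate 1 of H3.3G34W_K27R the count of 6 calls was 0 and without replicate 2 it was 1, and it was 12 without either H3.1G34W library; the shares of all genes were then 7.05%, 7.04% and 20.1%.

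**Figure D2:**
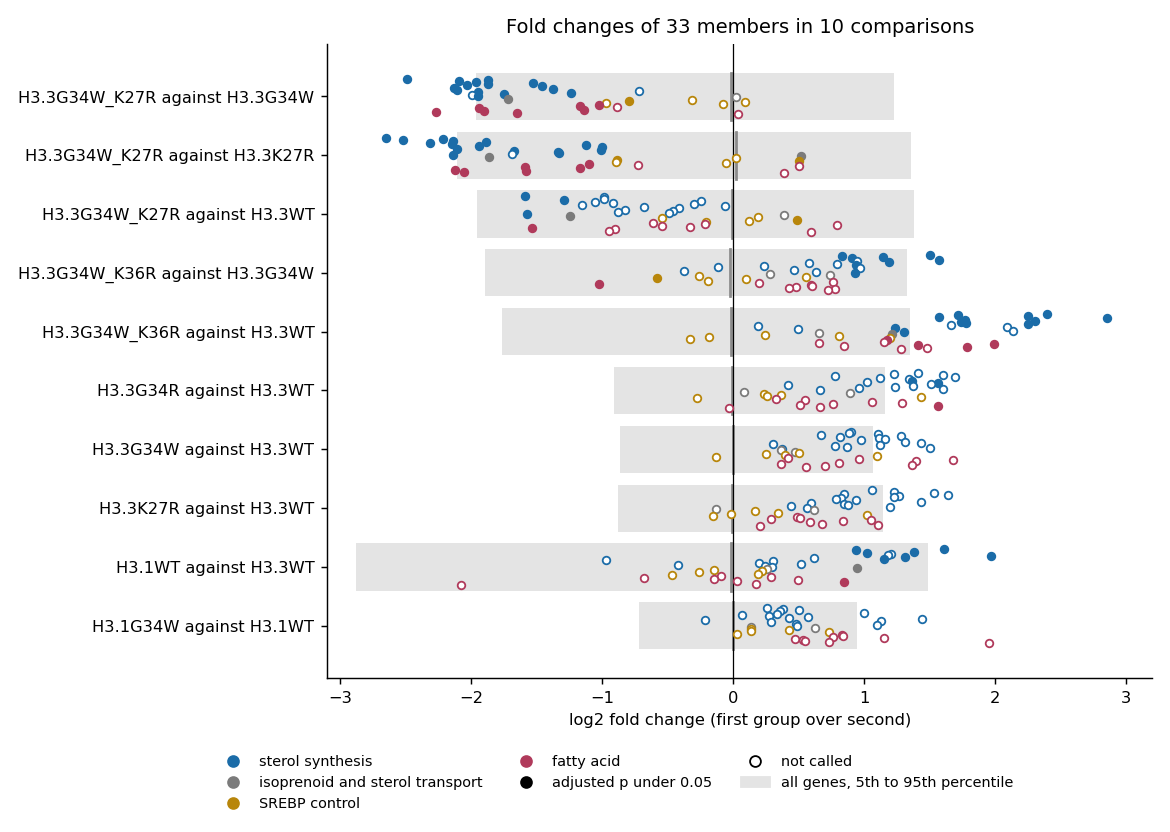
The log2 fold change of each of the 33 genes (points, coloured by role, filled where the adjusted p was under 0.05) in 10 comparisons, with grey bars from the 5th to the 95th percentile of all tested genes. Sterol synthesis genes sit at the left in the comparisons of H3.3G34W_K27R and at the right in those of H3.3G34W_K36R, while most genes of SREBP control lie nearer to 0.

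H3.3G34W_K36R stood at the other end. Against H3.3WT, 17 members rose and none fell, where 8.3% of all genes rose and 8.82% fell, and the median log2 fold change was 1.41 over the members and -0.0142 over all genes. Without overlap 31 members were higher and 2 lower, where 44.6% and 46.0% of all genes were. Of sterol synthesis 12 of 17 rose, and Dhcr7, Ebp, Mvd, Pmvk and Tm7sf2 did not pass. Lss had the largest change: it read 7259 and 7120.2 in H3.3G34W_K36R, and 986 and 1001 in H3.3WT, a log2 fold change of 2.85 ± 0.56, adjusted p = 0.00773. Hsd17b7 had the smallest adjusted p, with 6414 and 6376 in H3.3G34W_K36R, and 1349.9 and 1331 in H3.3WT (2.25 ± 0.27, adjusted p = 6.5e-04). The count was 9 without either H3.3G34W_K36R library (6.42% and 6.36% of all genes), 26 without either H3.1G34W library (23.6%) and 0 with close pairs averaged (0.213%).

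Against H3.3G34W, H3.3G34W_K36R had 8 members higher, all of sterol synthesis, and 2 lower, where 14.4% of all genes rose and 16.2% fell. The 8 were Idi1, Fdft1, Fdps, Sqle, Lss, Sc4mol, Hsd17b7 and Acat2, with log2 fold changes of 0.83 to 1.57. The 2 that fell were Scap (-0.58 ± 0.12, adjusted p = 0.00452) and Scd1 (-1.02 ± 0.32, adjusted p = 0.0356). The share of members that rose was 24.2%. Single libraries moved the 10 calls in either direction, where 30.6% of all genes were called: they were 2 without either H3.3G34W_K36R library (13.6% and 13.0% of all genes), 4 without replicate 1 of H3.3G34W (29.2%), 16 without its replicate 2 (36.3%) and 17 without either H3.1G34W library (36.4%). Of these, 1, 2, 14 and 15 were higher. With close pairs averaged no member was called, where 1.04% of all genes were.

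The single mutants of H3.3 lay between these extremes, above H3.3WT and below H3.3G34W_K36R for most members. Against H3.3WT, 29 members were higher without overlap in H3.3G34W, 31 in H3.3G34R and 30 in H3.3K27R, where 27.6%, 41.5% and 40.3% of all genes were. In H3.3G34R 1 member was lower without overlap (43.1% of all genes), and in H3.3K27R 2 were (42.5%). Few passed the test. In H3.3G34R 3 members rose, where 1.75% of all genes did, and none fell, where 0.963% did. They were Hsd17b7 (1.56 ± 0.27, adjusted p = 0.0155), Elovl6 (1.56 ± 0.29, adjusted p = 0.0212) and Sc5d (1.36 ± 0.28, adjusted p = 0.0308). In H3.3G34W none passed, where 0.75% of all genes rose, 0.434% fell and 1.18% did either. Hsd17b7 came nearest there with 1.31 ± 0.27, adjusted p = 0.0506. In H3.3K27R none passed, where 1.85% of genes rose and 2.75% did either. The median log2 fold changes of the members were 0.87 in H3.3G34W, 1.02 in H3.3G34R and 0.82 in H3.3K27R, and those of all genes 0.00181, -0.00868 and -0.0122; the 3 comparisons share their H3.3WT libraries.

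These counts depended on how the spread was estimated. With the H3.3WT libraries counted separately, 9 members were called in H3.3G34W, 13 in H3.3G34R and 9 in H3.3K27R, where 7.55%, 10.4% and 8.87% of all genes were. With the compared groups alone in the fit, so that the wide pairs did not enter, 31 members were called in H3.3G34R and 30 in H3.3K27R, but so were 60.7% and 55.4% of all genes. Against H3.3WT, 32 were then called in H3.3G34W_K27R and 33 in H3.3G34W_K36R, with 67.1% and 75.5% of all genes; none was called in H3.3G34W (0.0%). Without either H3.1G34W library the counts in H3.3G34W, H3.3G34R and H3.3K27R were 12, 17 and 9, where 3.4%, 5.6% and 5.2% of all genes were called, and without either H3.3G34W library 3, 9 and 4. The H3.3G34W count was also 2 without either H3.1WT library and 1 without replicate 1 of H3.3WT, and the H3.3G34R count was 0 without either of its own libraries. Hsd17b7, the nearest to the threshold in H3.3G34W, read 4009.97 and 3911 in H3.3G34R, 3155 and 3518 in H3.3G34W, 2520.3 and 2621 in H3.3K27R, and 1349.9 and 1331 in H3.3WT. The 6 mutant libraries were all above both H3.3WT libraries, and the gap between replicates was wider in H3.3G34W than in H3.3G34R, H3.3K27R and H3.3WT.

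H3.3G34R and H3.3G34W were not told apart: no member passed, where 0.726% of all genes rose, 0.118% fell and 0.845% did either, none had an unadjusted p under 0.05, and the fold changes ran from -0.62 for Scd1 to 0.52 for Idi1. This does not show that they act alike, since the SE of these fold changes was 0.12 to 0.74. The H3.3G34W libraries differed from each other more than that for some genes. All 17 sterol synthesis genes were higher in replicate 2 of H3.3G34W, by a median of 0.721 log2 units, as in Cyp51, with 5929.6 and 15747 in H3.3G34W.

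In the H3.1 groups the replicates of H3.1G34W decided the comparison. Replicate 2 was above replicate 1 for 32 of 33 members, by a median of 0.88 log2 units; over all genes replicate 2 was higher for 6358 of 12670. Mvd, for example, read 870.2 and 4226 in H3.1G34W, and 787 and 975 in H3.1WT, and Tm7sf2, a sterol C14 reductase, 201 and 1381 in H3.1G34W, and 186 and 324 in H3.1WT. Against H3.1WT no member passed, as no gene of the table did (0.0%). The median log2 fold change of the members was 0.489. Libraries did not overlap for 8 members that were higher (15.6% of all genes) and 1 that was lower (17.6%). Without replicate 1 of H3.1G34W, 20 members were called (19.6% of all genes), without replicate 2 none, and without replicate 1 of H3.1WT 2 (17.9%).

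In H3.1WT against H3.3WT, 27.3% of members were called in either direction, below the 33.4% of all genes. Here 9 members rose and none fell, where 16.3% of all genes rose and 17.0% fell; the share of members that rose was 27.3%. Without overlap 20 were higher, against 38.1% of all genes, and 7 lower, against 39.1%. The 9 were Sc4mol (1.97 ± 0.35, adjusted p = 0.00235), Sc5d, Ggps1, Idi1, Hsd17b7, Fdft1, Fdps, Sqle and Elovl6 (0.85 ± 0.29, adjusted p = 0.0466). Dhcr7 and Pmvk pointed the other way: Dhcr7 read 407 and 329 in H3.1WT, and 722 and 713 in H3.3WT (-0.97 ± 0.71, adjusted p = 0.318), the lowest of all groups, and Pmvk 511 and 779 in H3.1WT, and 831 and 857 in H3.3WT (-0.42 ± 0.39, adjusted p = 0.438). Calls in either direction, 33.4% over all genes, were 5 without any 1 library of H3.3G34R, H3.3G34W_K27R, H3.3G34W_K36R or H3.3K27R, 14 without either H3.1G34W library (40.4%) and 0 with close pairs averaged (4.9%). The interaction of G34W with histone type asks whether G34W acts alike in H3.1 and H3.3. It passed for no member, where 0.197% of all genes passed.

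**Figure D3:**
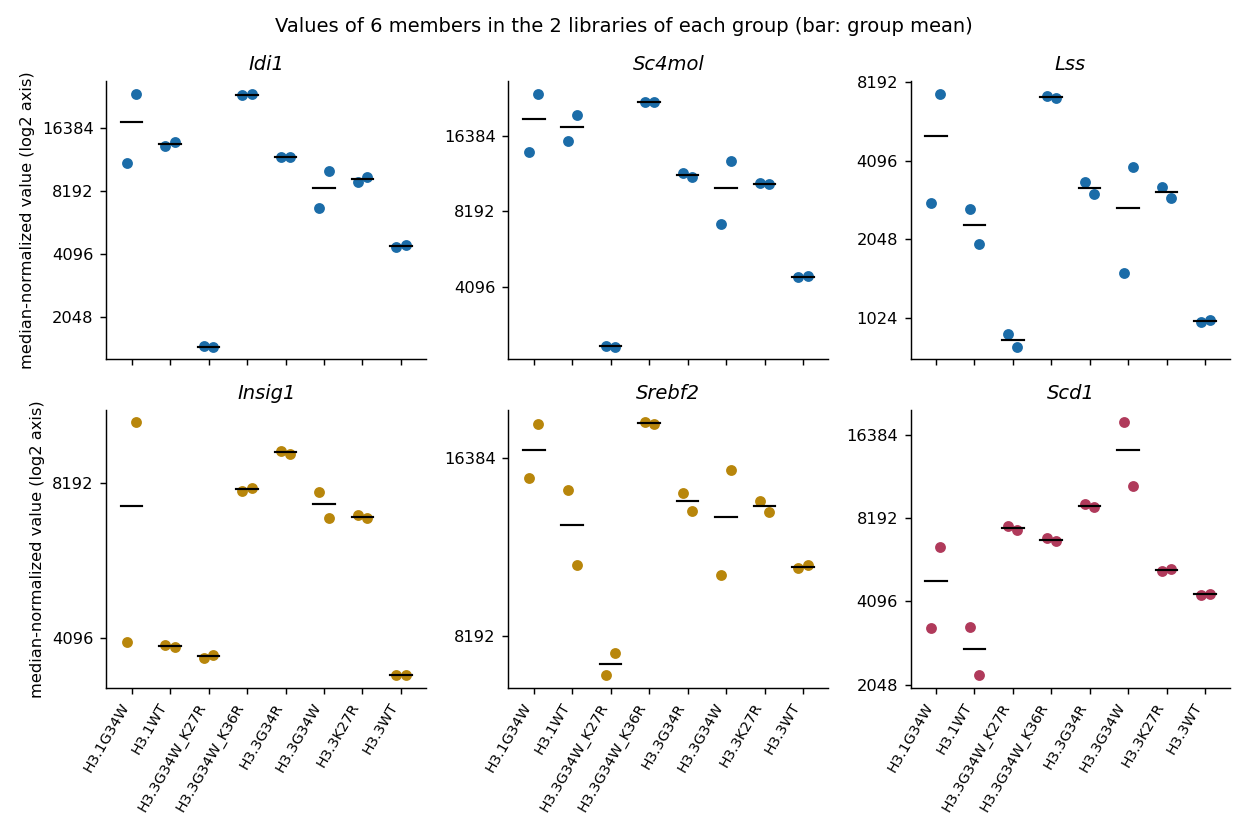
Values of 6 genes in each library (points, left replicate 1) with group means (bars), on log2 axes that do not start at 0. Idi1, Sc4mol and Lss are lowest in H3.3G34W_K27R; Insig1 is lowest in H3.3WT, and Scd1 is highest in replicate 1 of H3.3G34W.

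The genes that control SREBP had narrower ranges than the enzymes, as given above. Srebf2 read 7036 and 7688 in H3.3G34W_K27R, 18848 and 18697 in H3.3G34W_K36R, 14336 and 13370.3 in H3.3G34R, 10395 and 15654 in H3.3G34W, 13879 and 13301 in H3.3K27R, and 10699 and 10797 in H3.3WT; in the H3.1 groups it read 15149.7 and 18747 in H3.1G34W, and 14479 and 10828 in H3.1WT. It was lowest in H3.3G34W_K27R and highest in H3.3G34W_K36R, like the enzymes, over a 2.55-fold range of means. It fell by 0.79 log2 units in H3.3G34W_K27R against H3.3G34W (adjusted p = 0.0217) and by 0.89 against H3.3K27R (adjusted p = 0.0118). Srebf1 covered a 1.57-fold range, with the highest mean of 2173 ± 243 in H3.3G34W and the lowest of 1386 ± 122 in H3.1WT (SD, n = 2 each), and was called in the F test (adjusted p = 0.0218) but in no comparison of 2 groups.

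Insig1, itself an SREBP target that retains SCAP, followed a different order. It read 4039 and 10728 in H3.1G34W, 3979 and 3949 in H3.1WT, 3759 and 3809.7 in H3.3G34W_K27R, 7914 and 8021 in H3.3G34W_K36R, 9459.6 and 9313 in H3.3G34R, 7869.8 and 7015 in H3.3G34W, 7105 and 6997 in H3.3K27R, and 3475 and 3479 in H3.3WT. H3.3WT was the lowest group and H3.3G34R the highest, and H3.3G34W_K27R was close to H3.3WT (0.12 ± 0.40, adjusted p = 0.885). The interaction of G34W with K27R passed for it (-1.99 ± 0.52, adjusted p = 0.0441), and no comparison of 2 groups did; against H3.3G34W the double mutant had -0.97 ± 0.33, adjusted p = 0.0613.

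The group means of Scap covered a 1.67-fold range and those of Insig2 a 1.38-fold range. Scap read 2626 and 2781 in H3.1G34W, 2618 and 2309 in H3.1WT, 4142 and 4104 in H3.3G34W_K27R, 2560.2 and 2627 in H3.3G34W_K36R, 3550.1 and 3499 in H3.3G34R, 3675 and 4095 in H3.3G34W, 3075 and 2761 in H3.3K27R, and 2899 and 2991 in H3.3WT. Its order differed from that of the enzymes, with H3.3G34W_K27R highest, and it rose there against H3.3WT (0.49 ± 0.14, adjusted p = 0.0447). Insig2, the other retention protein, lay between 1334 and 2083 in all libraries and passed neither the F test nor any comparison.

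The fatty acid genes divided. Against H3.3G34W, 7 of 9 fell in H3.3G34W_K27R, where 12.4% of all tested genes fell: Elovl6, the elongase of palmitate, by 2.27 log2 units (adjusted p = 1.0e-04), Scd2, a stearoyl-CoA desaturase, by 1.94, and Fads2 and Fads1, the desaturases of polyunsaturated fatty acids, by 1.91 and 1.14. Acsl3, an acyl-CoA synthetase, fell by 1.65, Fasn, the fatty acid synthase, by 1.17 and Acly, which supplies cytosolic acetyl-CoA, by 1.03 (adjusted p = 0.0164, 0.0174 and 0.0249). Elovl6 read 2872 and 4918 in H3.1G34W, 3126 and 2124 in H3.1WT, 796 and 732 in H3.3G34W_K27R, 4999.7 and 4874 in H3.3G34W_K36R, 4286 and 4172 in H3.3G34R, 3464 and 3913 in H3.3G34W, 2215 and 2367 in H3.3K27R, and 1466 and 1395 in H3.3WT. Both H3.3G34W_K27R libraries were below every other library for it. In H3.3G34W_K36R against H3.3WT, Elovl6, Fads1, Scd2 and Acly rose, by 1.79, 1.41, 1.99 and 1.17 log2 units.

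Scd1 and Lpin1 left this pattern. Scd1, the other desaturase of stearate, read 3280.1 and 6465 in H3.1G34W, 3318 and 2213 in H3.1WT, 7661 and 7406 in H3.3G34W_K27R, 6917 and 6787 in H3.3G34W_K36R, 9185 and 8957 in H3.3G34R, 18161 and 10659.6 in H3.3G34W, 5267 and 5362 in H3.3K27R, and 4322 and 4362 in H3.3WT. It was highest in replicate 1 of H3.3G34W, and H3.3G34W_K27R lay above H3.3WT without passing (0.79 ± 0.39, adjusted p = 0.223). Scd2 is its near relative, and reads shared between them could be split by the authors' counting. Scd2 read 17379 and 17608 in H3.3G34W_K27R, 101706 and 101378 in H3.3G34W_K36R, 63614 and 61037 in H3.3G34R, 55922 and 80740.0 in H3.3G34W, 52330.0 and 53247 in H3.3K27R, and 25347 and 25677 in H3.3WT, with H3.3G34W_K27R lowest and H3.3G34W_K36R highest. Lpin1, a phosphatidate phosphatase of triglyceride synthesis, read 123 and 953 in H3.1G34W, 107 and 72.3 in H3.1WT, 547 and 582 in H3.3G34W_K27R, 905 and 912 in H3.3G34W_K36R, 359 and 372 in H3.3G34R, 888 and 341 in H3.3G34W, 419.9 and 443 in H3.3K27R, and 379 and 369 in H3.3WT, so its lowest values were in H3.1WT and replicate 1 of H3.1G34W.

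Of the remaining pair, Stard4, which carries cholesterol through the cytosol, behaved like the enzymes. It read 2597 and 3770.3 in H3.1G34W, 2728 and 1513 in H3.1WT, 707 and 723 in H3.3G34W_K27R, 3991 and 3883 in H3.3G34W_K36R, 3102 and 3189.6 in H3.3G34R, 2055 and 2707 in H3.3G34W, 2532 and 2679 in H3.3K27R, and 1683 and 1714 in H3.3WT. It fell in H3.3G34W_K27R against all 3 groups it was set against and rose in H3.3G34W_K36R against H3.3WT (1.21 ± 0.32, adjusted p = 0.027). Ggps1, the geranylgeranyl diphosphate synthase of the branch to protein prenylation, did not: it read 1007 and 1226 in H3.1G34W, 1104 and 927 in H3.1WT, 671 and 704 in H3.3G34W_K27R, 855 and 797 in H3.3G34W_K36R, 570.1 and 542 in H3.3G34R, 776 and 592 in H3.3G34W, 470.3 and 489 in H3.3K27R, and 534 and 516 in H3.3WT. The H3.1 libraries were the highest for it and H3.3K27R the lowest.

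Genes around the route that are not members were read from further lists. Their counts stand beside the shares given above: 12.4% of all tested genes fell and 9.24% rose in H3.3G34W_K27R against H3.3G34W. Of 15 other genes of sterol and isoprenoid synthesis, 1 fell (Fnta, a prenyltransferase subunit) and none rose in H3.3G34W_K27R against H3.3G34W, and the median log2 fold change was -0.0925. Of 24 other genes of fatty acid and triglyceride synthesis, 6 fell (Acss2, Elovl5, Tecr, Mid1ip1, Aacs and Rdh11) and 3 rose (Agpat3, Lpin2 and Mlx), with a median of -0.437. Mid1ip1, a regulator of acetyl-CoA carboxylase, read 2771 and 4036 in H3.1G34W, 2646 and 3259.8 in H3.1WT, 699.9 and 757 in H3.3G34W_K27R, 2824 and 2689.6 in H3.3G34W_K36R, 2261 and 2150.3 in H3.3G34R, 1260.03 and 2005 in H3.3G34W, 2881 and 2713 in H3.3K27R, and 1350.2 and 1333 in H3.3WT, lowest in H3.3G34W_K27R like the members (-1.13 ± 0.23, adjusted p = 0.00575). Dgat2, which makes triglycerides, was split otherwise: it read 93.3 and 101 in H3.1G34W, 109.9 and 97.7 in H3.1WT, 944 and 913 in H3.3G34W_K27R, 171 and 156 in H3.3G34W_K36R, 908 and 931 in H3.3G34R, 1831 and 869 in H3.3G34W, 820.4 and 786 in H3.3K27R, and 1316 and 1293 in H3.3WT. Its fall in H3.3G34W_K36R against H3.3WT was -2.99 ± 0.34, adjusted p = 4.7e-04.

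A further 13 genes serve the vesicle transport, cleavage or degradation of SREBP and its partners. Of these, 1 rose (Sar1b) and 1 fell (Mbtps1, the protease of the first cleavage) in H3.3G34W_K27R against H3.3G34W. In H3.3G34W_K36R against H3.3WT 3 rose, where 8.3% of all genes did: Mbtps2, the protease of the second cleavage, and Sec23a and Sec24a, coat proteins of the vesicles that leave the endoplasmic reticulum. Sec24a read 2695 and 2730.2 in H3.3G34W_K36R, and 1106 and 1038 in H3.3WT (1.34 ± 0.30, adjusted p = 0.0148), and 4403 and 2595 in H3.1G34W, and 4635 and 3068 in H3.1WT. Of 13 genes of sterol uptake, transport and esterification, Npc2 and Soat1 rose and Nceh1 fell in H3.3G34W_K27R against H3.3G34W. Soat1, which esterifies cholesterol, read 6152 and 6088 in H3.1G34W, 6046 and 5045 in H3.1WT, 5317 and 5172 in H3.3G34W_K27R, 5418 and 5326 in H3.3G34W_K36R, 2093 and 2113 in H3.3G34R, 2553 and 2485 in H3.3G34W, 2445 and 2495 in H3.3K27R, and 2527 and 2556 in H3.3WT. These libraries formed a high and a low set without overlap, and H3.3G34W_K27R rose against H3.3WT (1.04 ± 0.14, adjusted p = 6.8e-04). Nceh1, which splits the esters, read 408 and 391 in H3.3G34W_K27R, and 635 and 671 in H3.3G34W (-0.71 ± 0.21, adjusted p = 0.0391).

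LXR is the receptor that answers to oxysterols, and its list held 11 tested genes. In H3.3G34W_K27R against H3.3G34W 1 rose, Nr1h2, which encodes a form of the receptor, and none fell. In H3.3G34W_K36R against H3.3G34W none rose, where 14.4% of all genes did, and Nr1h2, Abcg1 and Smpdl3a fell, where 16.2% did. Abcg1, a cholesterol exporter, read 0.978 and 0.882 in H3.3G34W_K36R, and 686 and 41.6 in H3.3G34W, and it was at 0 in all 4 H3.1 libraries. Ch25h, which makes an oxysterol, read 60.7 and 49.4 in H3.3G34W_K36R, and 912 and 882 in H3.3WT (-4.01 ± 0.91, adjusted p = 0.0156). It was low in the H3.1 groups too, with 1.04 and 18.5 in H3.1G34W, and 55.3 and 50.8 in H3.1WT. The other groups read 719 and 713 in H3.3G34W_K27R, 165 and 163 in H3.3G34W, 348 and 354 in H3.3G34R, and 993 and 1012 in H3.3K27R.

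Several adipocyte genes stood out in the same H3.3G34W_K27R libraries that were low for the members, and in 1 other. Adipoq, the adipocyte hormone adiponectin, read 1.04 and 0.77 in H3.1G34W, 0.758 and 0 in H3.1WT, 1358 and 1288 in H3.3G34W_K27R, 2.93 and 1.76 in H3.3G34W_K36R, 35.6 and 41.1 in H3.3G34R, 4082 and 7.65 in H3.3G34W, 10.6 and 9.97 in H3.3K27R, and 19.4 and 19.4 in H3.3WT. Plin1, a coat protein of lipid droplets, read 453 and 501 in H3.3G34W_K27R, and 825 and 0 in H3.3G34W, and Cidec, of droplet fusion, 217 and 219 in H3.3G34W_K27R, and 329 and 0 in H3.3G34W, with no other library above 3.87 for either gene. The summed value of the 15 markers was 21376 and 20812 in H3.3G34W_K27R, 50885 and 13000 in H3.3G34W, and 13299 to 17225 in the other 12 libraries. In H3.3G34W_K27R and in replicate 1 of H3.3G34W 1 marker was at or under 3 reads, and in the other 13 libraries 4 to 7 were. Of the 13 tested markers, 8 rose and 1, Fabp5, fell in H3.3G34W_K27R against H3.3K27R, where 11.7% of all genes rose and 14.5% fell. Plin1 and Cidec, which are among the 8, passed the filter on low values only through H3.3G34W_K27R and replicate 1 of H3.3G34W. The count of rises is therefore partly fixed by that filter. Against H3.3G34W none rose and 1, Cebpa, fell, where 9.24% of all genes rose and 12.4% fell. Against H3.3WT 1 rose, Pnpla2, and none fell, where 6.42% and 7.91% of all genes did. Plin4, Cebpa and Fabp5 were lower without overlap against both H3.3G34W and H3.3WT, where 32.1% and 44.5% of all genes were. Higher without overlap were 0 markers against H3.3G34W and 10 against H3.3WT, where 30.0% and 43.8% of all genes were.

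The mesenchymal markers and those of other cell types moved with the groups as well. Of the 10 mesenchymal markers 8 passed the F test, where 66.6% of all genes did. Col3a1, Pdgfra, Thy1 and Ly6a were called lower in H3.1WT against H3.3WT and none higher, where 17.0% of all genes fell and 16.3% rose. Tubb3, a tubulin of neurons, read 37.3 and 57.7 in H3.1G34W, 51.7 and 33.2 in H3.1WT, 47.7 and 56.4 in H3.3G34W_K27R, 146 and 139 in H3.3G34W_K36R, 399.9 and 435 in H3.3G34R, 255 and 599.6 in H3.3G34W, 861 and 799 in H3.3K27R, and 626 and 596 in H3.3WT. It was called lower in H3.3G34W_K27R against H3.3G34W (-2.89 ± 0.38, adjusted p = 4.2e-04) and against H3.3K27R and H3.3WT, and lower in H3.3G34W_K36R against H3.3G34W and H3.3WT. Cdh5, a cadherin of endothelium, read 2.22 and 0 in H3.3G34W_K27R, 0 and 0 in H3.3G34W_K36R, 30.2 and 27.8 in H3.3G34R, 36.6 and 70 in H3.3G34W, 10.6 and 16.2 in H3.3K27R, and 8.71 and 6.78 in H3.3WT, and 1.52 or less in the H3.1 libraries. Tubb3 and Cdh5 were both low in H3.3G34W_K27R, where sterol synthesis was lowest, and in H3.3G34W_K36R, where it was highest. Cdh5 was called lower in H3.3G34W_K27R against H3.3G34W and H3.3K27R and in H3.3G34W_K36R against H3.3G34W and H3.3WT. Both genes passed the interaction of G34W with K27R downward. Cdh5, however, passed the filter on low values only through the H3.3G34W libraries. Its falls against H3.3G34W and its interaction are therefore partly fixed by that filter. In both double mutants it was under the value that 3 reads give. Cd68, of macrophages, the third tested gene of this list, lay between 12.5 and 55.8 and was called higher in H3.3G34W_K27R against H3.3K27R (1.82 ± 0.43, adjusted p = 0.0124). The summed value of the 9 markers was 104 and 110 in H3.3G34W_K27R, 172 and 166 in H3.3G34W_K36R, 477 and 510 in H3.3G34R, 331 and 735 in H3.3G34W, 897 and 843 in H3.3K27R, and 665 and 639 in H3.3WT.

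Fewer cells of a type and less RNA per cell cannot be told apart in such bulk samples. The part that adipocytes or the other cell types marked here play in the values of the members was not tested. Replicate 1 of H3.3G34W, with the highest Adipoq, held the lower value of the pair for all 17 sterol synthesis genes and the higher one for 6 members, with Scd1, Lpin1 and Fasn among them. Its median for sterol synthesis, centred on the mean over groups, was -0.20, against -1.61 and -1.66 in H3.3G34W_K27R and 0.53 in replicate 2. For the fatty acid genes the same library stood at 0.38 and its partner at 0.29, with the H3.3G34W_K27R libraries at -0.94 and -0.96.

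**Figure D4:**
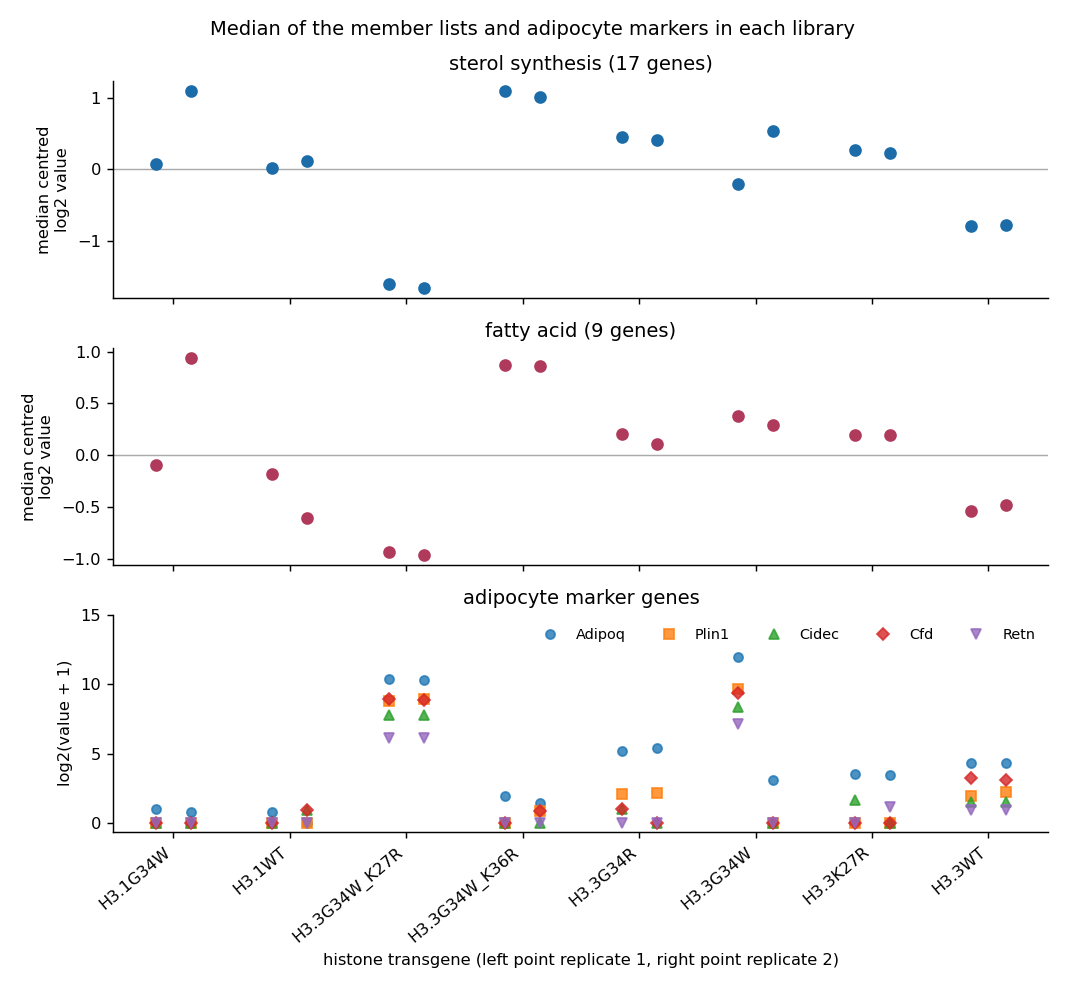
Median of log2(value + 1), centred on the mean over groups, for the sterol synthesis and fatty acid genes in each library, above the log2(value + 1) of 5 adipocyte markers. Sterol synthesis is lowest in both H3.3G34W_K27R libraries, and the 5 markers shown are high there and in replicate 1 of H3.3G34W. Of the markers not shown, Plin4, Cebpa and Fabp5 were lower in H3.3G34W_K27R than in H3.3WT.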

How the data were processed

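Polyadenylated RNA of 16 C3H10T1/2 libraries, 2 for each of 8 histone transgenes, was sequenced. Per the submitters' processing notes the authors used RSEM 1.2.4 and the mm9 build; the aligner, annotation and filters are not given in the sources used here. The deposited signal values are RSEM expected counts that the authors scaled by a median normalization. They were not divided by length and need not be whole. Per library, 41.7% to 47.6% of values lay within 0.01 of a whole number of reads. Whole read counts were thus not available for every gene, and no count model was run. A second deposited table repeats 180 of the genes with the same values, and 0 sample columns were left unused.

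The analysis used limma 3.58.1 (lmFit, then eBayes with trend and robust; statmod 1.5.0) in R 4.3.3 on log2(value + 1), with Python 3.11.15, numpy 2.4.6, pandas 2.3.3 and scipy 1.17.1 for summaries. Log2 fold changes are on that scale, which understates changes of low genes. Genes with a mean of at least 10 were kept, 12670 in all. Tests were two-sided, with Benjamini-Hochberg adjustment over all genes and a threshold of 0.05. All groups entered 1 fit of 15 samples with 7 residual degrees of freedom, because the H3.3WT libraries were averaged before the log to 1 sample. That pair agreed within sampling noise over genes of at least 20 whole reads in both libraries (chi-square test, p = 0.983), though over all 11841 such genes, whole or not, chi-square per degree of freedom was 1.10. The fit was tested on simulated data first.

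Same-numbered replicates did not deviate together (correlations of -0.265 to 0.0598 over 28 pairs of groups), so numbers were not used as a block. The gene list, the other lists and the tests were chosen with earlier results of these data known, and no set test was run. Every listed gene in the table is reported; of the other lists, up to 3 genes by the F test and up to 2 each way per comparison are given with values, and lists of 6 or fewer calls are named in full after their values were seen. The rule for promoters asked for TCACNCCAC, which no member held, so the sterol genes shown were chosen after their values were seen. Alternatives covered the pseudocount, the filter, the scaling, the variance model, how close pairs are counted, the samples fitted, fits without each library in turn and a replicate block.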

Additional observations from a re-analysis of the deposited data

Results flagged for a closer look

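One result stood out because the effect of the same contrast differed between backgrounds. For 21 of the 33 genes the difference of H3.3G34W_K27R from H3.3K27R was lower than that of H3.3G34W from H3.3WT (interaction in limma, adjusted p under 0.05), where 5.22% of all tested genes passed downward and 7.95% in either direction. The median difference of these effects over all 33 genes was -2.34 log2 units. Their medians were -1.58 for H3.3G34W_K27R against H3.3K27R and 0.87 for H3.3G34W against H3.3WT.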

How the results depend on the processing

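For members called in a comparison of the main fit, no direction was reversed in any alternative run. Directions of members that were not called were not compared, and the F test has no direction. Of 3990 repeats of 149 results for single genes, called members and F tests, 3479 kept their call, 499 lost it and 12 gained one. With the 5 close pairs averaged to 1 sample apiece, members called were 0 in H3.3G34R, H3.3G34W_K27R, H3.3G34W_K36R and H3.1WT against H3.3WT, 2 in H3.3G34W_K27R against H3.3G34W (2.74% of all genes), 0 against H3.3K27R, 0 in H3.3G34W_K36R against H3.3G34W, 0 for the interaction of G34W with K27R and 2 in the F test, where 8.13% of all genes were called; this fit has fewer samples by construction. With the compared groups alone in the fit they were 31 in H3.3G34R, 30 in H3.3K27R, 32 in H3.3G34W_K27R, 33 in H3.3G34W_K36R and 3 in H3.1WT against H3.3WT, and 4 in H3.3G34W_K36R against H3.3G34W, where 60.7%, 55.4%, 67.1%, 75.5%, 10.5% and 10.8% of all genes were called. With the H3.3WT libraries counted separately they were 13 in H3.3G34R, 9 in H3.3G34W, 9 in H3.3K27R, 10 in H3.3G34W_K27R and 26 in H3.3G34W_K36R, where 10.4%, 7.55%, 8.87%, 27.6% and 33.6% of all genes were called; with a replicate block on top, which the pairing check did not call for, they were 12, 8, 10, 13 and 26. H3.3G34W against H3.3WT had 1 call with a pseudocount of 5 and 2 after quantile normalization, which left 6 in H3.3G34W_K36R against H3.3G34W. The pseudocount of 0.5, no filter, a minimum mean of 50, TMM rescaling and eBayes without trend and robust moved no count of members by over 1.5 times. Leaving out each library gave, against H3.3WT, 0 to 17 calls in H3.3G34R, 0 to 12 in H3.3G34W, 0 to 9 in H3.3K27R, 0 to 12 in H3.3G34W_K27R, 9 to 26 in H3.3G34W_K36R and 5 to 14 in H3.1WT. It gave 16 to 27 in H3.3G34W_K27R against H3.3G34W, 15 to 28 against H3.3K27R, 2 to 17 in H3.3G34W_K36R against H3.3G34W, 0 to 0 in H3.3G34R against H3.3G34W and 0 to 20 in H3.1G34W against H3.1WT. For the interaction with K27R it gave 15 to 26, for that with histone type 0 to 2 and for the F test 24 to 31. The causes of these shifts were not tested, for the close pairs or for the other runs. Where no share of all genes stands beside a count, it is not read as a result about the members. The lowest value of any member in a library was 72.3, above the value that 3 reads give. The effect of depth on the calls was not tested.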
